A study of Arabidopsis thaliana with 72 samples.

Results

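The transcript response to nicotinamide in the subjective day was followed in Arabidopsis seedlings on 24 of the 72 ATH1 arrays of a time-course study. The arrays were chosen by their titles: 12 of nicotinamide-treated C24 wild type and 12 of untreated C24 wild type, with 2 replicates in each condition at 49, 53, 57, 73, 77 and 81 h. All seedlings had spent 11 days on agar with 12 h of light per day before continuous light began, and RNA was taken from their aerial tissue. Counted modulo 24, these times are hours 1, 5 and 9 of 2 successive days; the lamps stayed on throughout, so each day is a subjective one. The dose of nicotinamide and the moment of its addition are not given in the sources used here. The labels give the time course of untreated replicate 1 an earlier growth stage than untreated replicate 2 and both nicotinamide time courses. They do not say that replicates were separate batches of seedlings, so p values measure the spread between these samples only.

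Nicotinamide, the amide form of vitamin B3, is released when ADP-ribosyl cyclase, sirtuins and poly(ADP-ribose) polymerases split NAD, and it inhibits those enzymes. In Arabidopsis it is known to damp the daily rhythm of cytosolic free calcium and to slow the circadian clock. In the light part of the day leaf cells make chlorophyll, light-harvesting proteins and starch, and the clock sets the hour at which many of their transcripts peak. The comparison therefore set each treated array against untreated arrays of the same time.

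Signals are those of the deposited table, on a linear scale, and differences are nicotinamide minus untreated on the log2(signal + 16) scale, averaged over the 6 times. The 16 added units compress the difference of a transcript whose signal is low in either condition, so that its fold is understated. Of 22810 probe sets, 13647 were tested. On these the median signal of an array was 61.1 to 86.0 on the nicotinamide arrays and 84.2 to 91.8 on the untreated arrays. Replicates of the same time correlated at 0.919 to 0.967 under nicotinamide and at 0.971 to 0.986 in untreated seedlings (Pearson r across probe sets, 6 pairs each). GAPDH control probe sets had 3-prime to 5-prime signal ratios of 0.945 to 1.52 under nicotinamide and 1.16 to 1.66 in untreated seedlings. Of the variance among the 24 arrays, 59.0% lay on the first principal component, and no nicotinamide array lay among the untreated ones on it. The nicotinamide array of 77 h replicate 1 stood apart on the second component, at -62.8. There the other nicotinamide arrays divided by replicate, with replicate 1 at 23.8 to 37.3 and replicate 2 at -29.98 to 5.19. Their median signals differed as well, with 81.1 to 86.0 on these replicate 1 arrays and 68.6 to 77.2 on the replicate 2 arrays.

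With arrays as the units, the day level of most probe sets tested differed between nicotinamide and untreated seedlings. Of the 13647 probe sets, 3245 (23.8%) were higher and 5685 (41.7%) were lower under nicotinamide, so that 8930 (65.4%) were called in either direction (limma, adjusted p under 0.05). A change of at least 2-fold was called higher in 612 and lower in 1223, and one of at least 4-fold in 110 and 131. The median difference of all probe sets was -0.15 as deposited and -0.0021 after quantile normalization, so a small difference is read against that shift. Of the called probe sets, 36.3% were higher as deposited and 50.0% after quantile normalization, with 4437 higher and 4435 lower. Of the 8930 probe sets, 7306 were called in the same direction in both scalings and 0 in opposite directions. Within replicate 2, where the growth stage labels of the conditions match, 2835 were higher and 5284 lower, and 7473 of the 8930 calls were made again in the same direction. Within replicate 1 the counts were 1820 and 3667, with 5407 of the 8930 made again, and neither replicate turned a call round. These fits within a replicate had 1 array per condition and time and took time as an additive term. A difference that changed between times thus added to their error, unlike in the fit of both replicates. With the 2 time courses of a condition as the units, 2074 were higher and 3630 lower.

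Single times gave smaller counts than their mean, each resting on 2 arrays against 2. At 49 h, 651 probe sets were higher and 1169 lower. The counts were 1270 and 2360 at 53 h, 1327 and 2173 at 57 h, 1398 and 2263 at 73 h, 1640 and 3372 at 77 h, and 1467 and 2651 at 81 h. A call at all 6 times in the same direction was made for 317 higher (2.32%) and 721 lower (5.28%) probe sets. Their sum of 1038 was 415 without the nicotinamide array of 49 h replicate 2 and 535 without the untreated array of 49 h replicate 1.

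**Figure D1:**
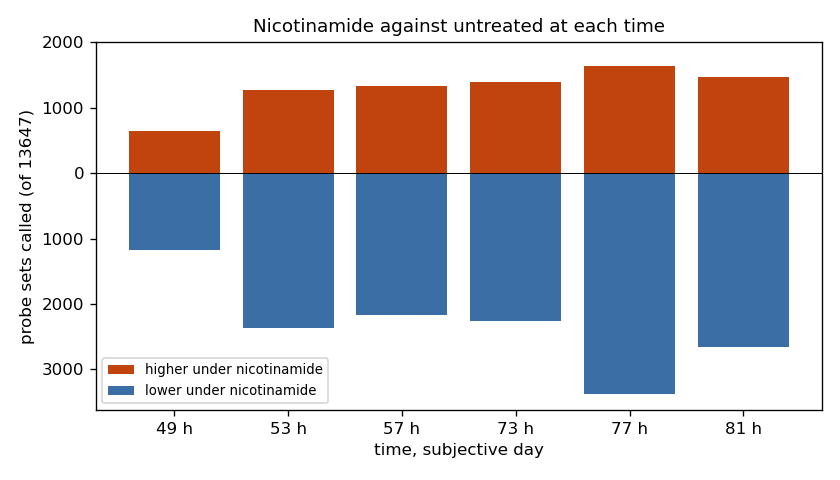
Number of probe sets called higher (above 0) or lower (below 0) under nicotinamide at each subjective day time in h, of 13647 tested with limma at an adjusted p under 0.05. Lower calls outnumber higher ones at each time, from 1169 against 651 at 49 h to 3372 against 1640 at 77 h.

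Over all probe sets tested, the 12 nicotinamide and 12 untreated arrays did not overlap in 610 higher (4.47%) and 1349 lower (9.88%) ones. The transcripts described next were chosen for a large difference with 1 sign at all times, so their separation between the groups is a description and no finding. The transcript raised most was AT5G64120, peroxidase 71, a secreted class III peroxidase. Its signals were 1522 to 5874 on the nicotinamide arrays (median 3356) and 103 to 424 on the untreated arrays (median 213). The difference was 3.61 ± 0.14 (SE; adjusted p = 9.02e-13), and the groups did not overlap. ICL encodes isocitrate lyase, the enzyme that opens the glyoxylate cycle when seedlings live on stored oil. Its signals were 75.7 to 207 on the nicotinamide arrays (median 162) and 0.416 to 20.4 on the untreated arrays (median 0.572), and the difference was 3.15 ± 0.14 (SE; adjusted p = 4.67e-12). Untreated ICL signals were so low that its fold is not resolved. The copper chaperone of superoxide dismutase, CCS, had a median of 236 under nicotinamide (range 102 to 405) against 32.0 in untreated seedlings (range 18.7 to 42.2), a difference of 2.41 ± 0.16. ALDH7B4, an aldehyde dehydrogenase of the stress response, had a median of 1503 under nicotinamide (range 868 to 2149.9) against 345 in untreated seedlings (range 249 to 461) and a difference of 2.06 ± 0.08. For FDH, the mitochondrial formate dehydrogenase, the median was 1714 under nicotinamide (range 1276 to 2129) against 457 in untreated seedlings (range 335 to 647) with a difference of 1.83 ± 0.09. OSM34, an osmotin-like protein of the thaumatin family, stood at 951 under nicotinamide (range 701 to 1364) against 191 in untreated seedlings (range 131 to 453), a difference of 2.13 ± 0.09. The nicotinamide arrays lay above all untreated arrays for each of these 6 transcripts.

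Further raised transcripts with a known product included UPB1, the transcription factor UPBEAT1 (2.19), bZIP44 (1.86), the vacuolar sugar transporter SWEET2 (1.98), the plant defensin PDF1.4 (2.38) and nad4, a subunit of mitochondrial complex I encoded in the mitochondrion (1.91). UPB1 and SWEET2 overlapped between the groups, with 23.5 to 355 against 5.49 to 46.7 and 198 to 576 against 42.4 to 203 on nicotinamide and untreated arrays. Raised transcripts that the annotation used gives by locus, without a symbol, were AT4G12500 (3.36), AT2G04050 (3.25), AT3G46280 (2.91), AT3G04000 (2.89), AT4G12490 (2.82), AT5G48430 (2.74), AT5G39580 (2.68), AT3G21080 (2.63), AT5G47550 (2.59) and AT1G68440 (2.57).

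The defensin PDF1.2b, a target of jasmonate signalling, was lowered most. Its signals were 11.3 to 91.9 on the nicotinamide arrays (median 19.6) and 132 to 1524 on the untreated arrays (median 681), a difference of -3.81 ± 0.32 (SE; adjusted p = 1.00e-08). PMEAMT, which methylates phosphoethanolamine on the way to phosphatidylcholine, had a median of 111 under nicotinamide (range 53.1 to 236) against 656 in untreated seedlings (range 569.6 to 915), a difference of -2.496 ± 0.15. The vacuolar fructose transporter SWEET17 stood at 29.9 under nicotinamide (range 10.7 to 47.3) against 221 in untreated seedlings (range 156 to 297), a difference of -2.397 ± 0.14. VTC4, a phosphatase of ascorbate synthesis, stood at 96.9 under nicotinamide (range 33.7 to 209.8) against 534 in untreated seedlings (range 335 to 693), a difference of -2.24 ± 0.19. No nicotinamide array reached an untreated array for any of these 4 transcripts. The beta-glucosidases BGLU28 and BGLU44 were at -2.45 ± 0.34 and -2.27 ± 0.13, and BGLU28 overlapped between the groups, with 42.1 to 522 under nicotinamide and 293 to 1976 in untreated seedlings. ZW9 was at -2.54 ± 0.11. Lowered transcripts without a symbol in the annotation used were AT4G26010 (-3.47), AT4G17470 (-3.44), AT1G73600 (-3.41), AT1G29660 (-3.38), AT4G14090 (-3.22), AT4G01390 (-3.097), AT2G34620 (-2.88) and AT3G45160 (-2.78). Chosen by the same rule, rpl22 overlapped between the groups.

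**Figure D2:**
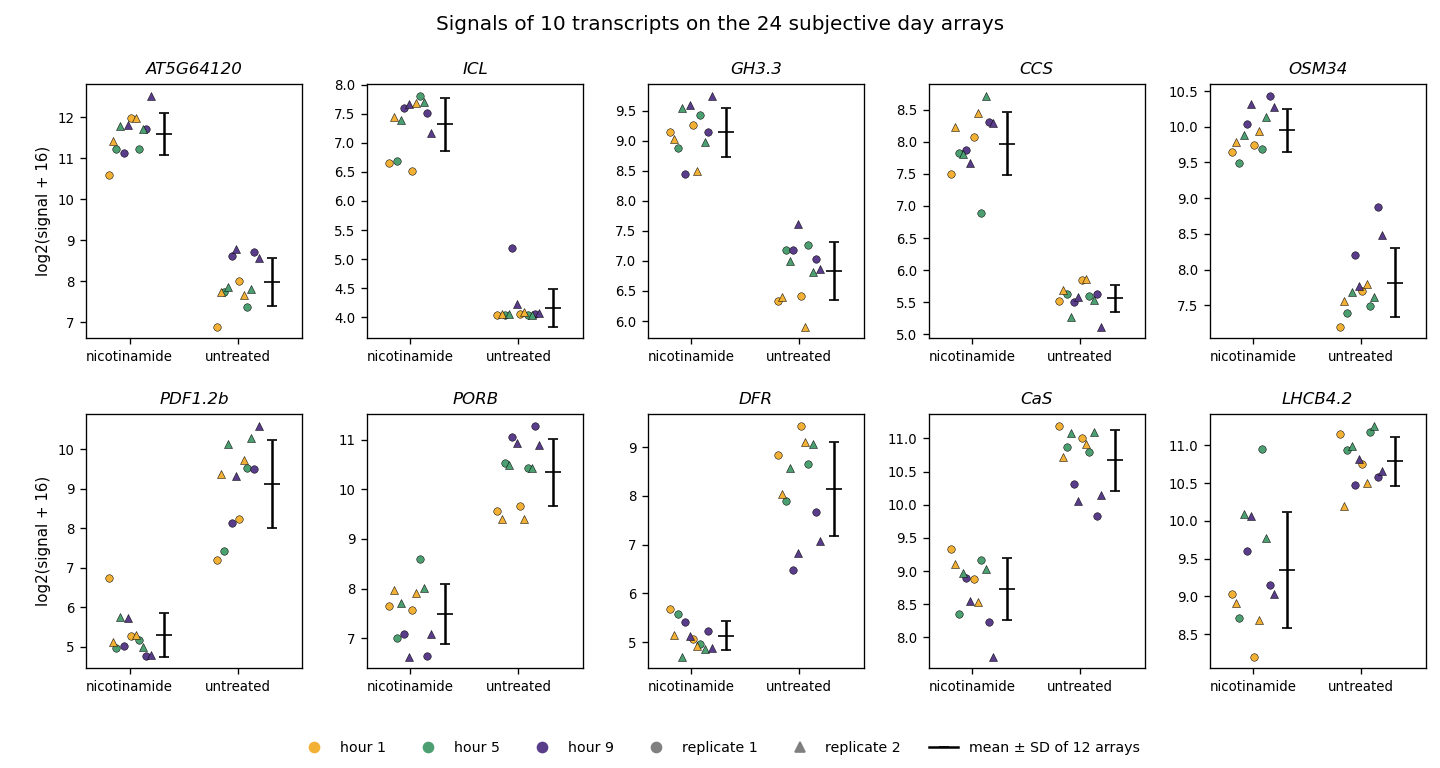
Signals of 10 transcripts on the 24 subjective day arrays as log2(signal + 16), nicotinamide left and untreated right in each panel. Colours mark the hour modulo 24, shapes the replicate, and the bar the mean and SD of 12 arrays; LHCB4.2 is the single transcript drawn whose groups overlap.

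Transcripts of chlorophyll synthesis were mostly lower in the day under nicotinamide. Of 9 tested genes, 7 were lower and 1 was higher, with a median of -0.74. For this list and those that follow, the shares of all probe sets were 41.7% lower and 23.8% higher, with a median of -0.15. PORB, a light-dependent protochlorophyllide oxidoreductase, had signals of 82.9 to 371 on the nicotinamide arrays (median 179) and 663 to 2471 on the untreated arrays (median 1399), a difference of -2.85 ± 0.11 (SE; adjusted p = 7.89e-13). CHLI2, a subunit of magnesium chelatase, had a median of 84.0 under nicotinamide (range 30.4 to 131) against 272 in untreated seedlings (range 231 to 334), a difference of -1.53 ± 0.13. HEME1 and HEME2, uroporphyrinogen decarboxylases, were at -1.18 ± 0.09 and -0.904 ± 0.09. GSA1, which forms aminolevulinate, was at -0.74 ± 0.09 and the methyltransferase CHLM at -0.54 ± 0.08. NOL, a chlorophyll b reductase of breakdown, was lower as well, at -0.71 ± 0.103. HEMB1, aminolevulinate dehydratase, was the higher member, at 0.33 ± 0.08 (adjusted p = 0.00195). HEMA2 stood at -0.08 ± 0.12 without a call. PORB, CHLI2, HEME2 and NOL were separated between the groups, and HEME1 and CHLM overlapped.

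Of 7 light-harvesting and photosystem genes, 4 were lower and 0 higher as deposited, with a median of -0.28. LHCB4.2, a minor antenna protein of photosystem II, had a median of 530.4 under nicotinamide (range 278 to 1972) against 1748 in untreated seedlings (range 1156 to 2433), a difference of -1.44 ± 0.16 (SE; adjusted p = 4.37e-07). Its highest nicotinamide signal came from the array of 77 h replicate 1. LHCB4.3 was at -1.02 ± 0.14, PSAN of photosystem I at -0.66 ± 0.12 and LHCB4.1 at -0.28 ± 0.11 (adjusted p = 0.0353). PSAE-1, PSBW and PSBY lay between -0.17 and -0.05 without a call, and after quantile normalization all 7 genes were called lower. In the Calvin cycle, SBPASE, sedoheptulose bisphosphatase, was lower by 0.89 ± 0.09, with a median of 1204 under nicotinamide (range 700.4 to 1793) against 2351 in untreated seedlings (range 1453 to 2789). PRK, phosphoribulokinase, and RCA, the activase of Rubisco, were not called (0.07 and 0.21); RCA gained a call with quantile normalization, at 0.12.

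All 5 starch genes tested were lower, with a median of -1.03. SBE2.2, a branching enzyme, had a median of 92.6 under nicotinamide (range 38.8 to 225) against 343 in untreated seedlings (range 194 to 421), a difference of -1.66 ± 0.21 (adjusted p = 2.02e-06). APL3 and APL4, large subunits of ADP-glucose pyrophosphorylase, were at -1.82 ± 0.13 and -1.03 ± 0.13, with nicotinamide medians of 4.18 and 4.91 against untreated medians of 61.3 and 28.1. Their highest nicotinamide signals were 16.7 and 11.4, and APL4 overlapped between the groups. DPE1 and PWD, which take part in starch breakdown at night, were at -0.86 ± 0.12 and -0.75 ± 0.19, and both overlapped between the groups. Within replicate 2 all 5 genes were called lower, and 3 were within replicate 1. There DPE1 and PWD stood at -0.91 and -0.53 without a call.

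Genes of leucine breakdown and carbon starvation moved the other way: 5 of 6 tested were higher and 0 lower, with a median of 0.93. MCCA, the biotin-bearing subunit of methylcrotonyl-CoA carboxylase, had signals of 102 to 389 on the nicotinamide arrays (median 158) and 41.2 to 92.7 on the untreated arrays (median 59.5), a difference of 1.38 ± 0.11 (SE; adjusted p = 4.35e-09). Its partner subunit MCCB was at 0.55 ± 0.0997. IVD, isovaleryl-CoA dehydrogenase, which feeds electrons from leucine to the respiratory chain, was at 1.21 ± 0.15, and ETFQO, the next carrier on that route, at 0.64 ± 0.101. GAT1_2.1, a glutamine amidotransferase, had a median of 75.7 under nicotinamide (range 29.1 to 334) against 8.00 in untreated seedlings (range 1.33 to 24.5), a difference of 1.89 ± 0.19. D2HGDH stood at 0.06 ± 0.19 without a call. Its nicotinamide replicates differed, with -0.40 without nicotinamide replicate 1 and 0.52 without nicotinamide replicate 2. MCCA and GAT1_2.1 were separated between the groups, whereas IVD, MCCB and ETFQO overlapped. Beside ICL, the lipid list held SDRB, a reductase of fatty acid beta-oxidation, which was higher by 0.86 ± 0.08 with no overlap, AIM1 at -0.27 ± 0.11 (adjusted p = 0.0468) and the oil body lipase SDP1 at 0.17 ± 0.102 without a call. AIM1 lost its call within replicate 1 (-0.45), within replicate 2 (-0.09) and without any 1 of 19 of the 24 arrays, such as nicotinamide at 77 h replicate 1 (-0.17), and SDP1 gained one with quantile normalization, at 0.32.

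Autophagy transcripts of the ATG8 family, whose ubiquitin-like products coat the autophagosome, were mostly higher: 4 of 7 rose and 1 fell. ATG8B had a median of 338 under nicotinamide (range 233 to 550.2) against 86.5 in untreated seedlings (range 72.0 to 118), a difference of 1.73 ± 0.12 (SE; adjusted p = 1.23e-09), with no overlap. ATG8E, ATG8D and ATG8C were at 1.33 ± 0.12, 0.99 ± 0.11 and 0.61 ± 0.12, and ATG8F at -0.45 ± 0.11. ATG8G and ATG8H stood at 0.197 ± 0.12 and 0.36 ± 0.18 without a call, and quantile normalization gave both a call, at 0.43 and 0.49. The ubiquitin genes of the same list divided. UBC28, a ubiquitin-conjugating enzyme, was at 1.21 ± 0.11 and the U-box ligase PUB22 at 1.498 ± 0.14, while UBC20 was at -1.14 ± 0.101. Over the whole list of 38 genes 8 were higher and 9 lower as deposited, against 18 and 6 after quantile normalization. As deposited, that is 21.1% higher and 23.7% lower.

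Late steps of anthocyanin synthesis were lower in the day. DFR, dihydroflavonol 4-reductase, had signals of 10.0 to 35.0 on the nicotinamide arrays (median 18.1) and 73.2 to 675 on the untreated arrays (median 306), a difference of -3.01 ± 0.14 (SE; adjusted p = 4.93e-12). UF3GT, an anthocyanin glycosyltransferase, had a median of 7.36 under nicotinamide (range 1.08 to 13.1) against 132 in untreated seedlings (range 23.3 to 314), a difference of -2.46 ± 0.13. CHIL, a chalcone isomerase-like protein, was at -0.87 ± 0.14 and UGT78D1, a flavonol rhamnosyltransferase, at -0.92 ± 0.14, and both overlapped. UGT78D2, which glucosylates flavonols and anthocyanidins, was higher by 0.68 ± 0.096. In all, 4 of the 5 tested genes were lower and 1 was higher, with a median of -0.92. Within replicate 2, 4 were called lower, and 2 were within replicate 1. There CHIL and UGT78D1 stood at -0.52 and -0.57 without a call.

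Transcripts for 2 kinds of auxin conjugation were higher. GH3.3, an amidosynthetase that ties auxin to amino acids, had signals of 331 to 841 on the nicotinamide arrays (median 549) and 43.9 to 179.6 on the untreated arrays (median 106), a difference of 2.31 ± 0.14 (SE; adjusted p = 2.12e-10). IAGLU, which glucosylates indole-3-acetate, had a median of 883 under nicotinamide (range 666 to 1277) against 182 in untreated seedlings (range 117 to 269), a difference of 2.18 ± 0.103. GH3.3 and IAGLU did not overlap between the groups. GH3.17 (0.48 ± 0.12), the repressor IAA18 (0.47 ± 0.16) and the homeobox factor HAT2 (0.33 ± 0.09) were also called higher and overlapped. Of the 5 auxin genes tested 4 were higher, and YUC2, an enzyme of auxin synthesis, stood at -0.11 ± 0.08 without a call. Within replicate 2, 3 of the 5 were called higher, with IAA18 at 0.35 without a call. Within replicate 1 only GH3.3 was called, with GH3.17, HAT2 and IAA18 at 0.51, 0.24 and 0.58. The calls of those 3 were also lost without untreated replicate 1.

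Of 33 cell wall genes, 22 (66.7%) were lower and 6 (18.2%) higher, beside 41.7% and 23.8% of all probe sets, with a median of -0.40 against -0.15. After quantile normalization 17 were lower and 6 higher. EXPB3, a beta-expansin, had signals of 6.76 to 42.8 on the nicotinamide arrays (median 18.2) and 127 to 197 on the untreated arrays (median 161), a difference of -2.34 ± 0.09 (SE; adjusted p = 8.43e-13). The alpha-expansins EXPA8 and EXPA4 were at -1.91 ± 0.16 and -1.61 ± 0.09, whereas the expansin-like EXLA1 was higher by 1.32 ± 0.14. Among TBL proteins, which acetylate wall polysaccharides, 11 of 14 were lower and 1 was higher. TBL36 had a median of 8.53 under nicotinamide against 98.2 in untreated seedlings (-2.18 ± 0.08). TBL37 was the higher member, with a median of 379 under nicotinamide (range 296 to 469) against 135 in untreated seedlings (range 81.0 to 215) (1.403 ± 0.09). TBL41 was called lower at -0.25 and stood at 0.03 after quantile normalization. The xyloglucan endotransglucosylases XTH19 (-1.43 ± 0.13) and XTH18 (1.62 ± 0.22) moved in opposite directions, and XTH18 overlapped between the groups.

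Markers of other organs and tissues were few on the annotated array. PYK10, a root beta-glucosidase also made in seedling shoots, had a median of 2409 under nicotinamide (range 1728 to 2936) against 3746 in untreated seedlings (range 3215 to 4186), a difference of -0.67 ± 0.09. SCN1, a root hair gene, was at -0.56 ± 0.07, and the summed signal of 4 root hair genes was 164 to 223 under nicotinamide and 283 to 461 in untreated seedlings, of which SCN1 alone passed the filter on low signals. SWEET11, a sugar exporter of the phloem parenchyma, was at 0.62 ± 0.12. The summed signal of 3 leaf mesophyll markers was 7916 to 18116 under nicotinamide and 8948 to 14480 in untreated seedlings. SPCH of the stomatal lineage was called lower at -0.28 and stood at 0.02 after quantile normalization, and FMA, which specifies guard cells, was not called as deposited (-0.003), whereas quantile normalization put it at 0.27 with a call. The 2 shoot meristem markers summed to at most 7.93 under nicotinamide and 6.59 in untreated seedlings. Their part in the results on the cell wall, auxin and defence was not tested, and in such samples fewer cells of a type and less RNA per cell cannot be told apart.

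Defence transcripts divided by kind. Of 13 tested genes 6 were higher (46.2%) and 4 lower (30.8%), with a median of 0.31. WRKY22 and WRKY6, transcription factors of immune responses and senescence, had nicotinamide medians of 104 and 244 against untreated medians of 21.3 and 72.0, differences of 1.62 ± 0.13 and 1.53 ± 0.13. BIK1, a kinase that acts beneath immune receptors, had a median of 405 under nicotinamide (range 199 to 669) against 136 in untreated seedlings (range 97.0 to 166), a difference of 1.45 ± 0.12 (SE; adjusted p = 6.43e-09). WRKY47 and the glutaredoxin GRX480 were at 0.68 ± 0.09 and 0.65 ± 0.105, and SAG101 was at 0.37 ± 0.13 (adjusted p = 0.0229). The lowered members encode small antimicrobial peptides: beside PDF1.2b they were PDF1.2 (-2.09 ± 0.43), PDF2.1 (-0.65 ± 0.12) and the thionin THI2.2 (-2.36 ± 0.17). PDF1.4, a further defensin outside the list, was raised. WRKY22, WRKY6, BIK1, WRKY47 and THI2.2 were separated between the groups.

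Of 59 genes of oxidative stress and detoxification, 25 were higher (42.4%) and 19 lower (32.2%), with a median of 0.09. Among the UGT enzymes, which glycosylate hormones and foreign compounds, 14 of 28 were higher and 9 lower. UGT76B1, which acts on small defence signals, had signals of 258 to 744 on the nicotinamide arrays (median 528) and 61.6 to 99.7 on the untreated arrays (median 84.9), a difference of 2.49 ± 0.099 (SE; adjusted p = 1.07e-12). UGT73C1, UGT87A2 and UGT84A3 were at 2.297 ± 0.14, 1.53 ± 0.104 and 1.21 ± 0.101, and AER, an alkenal reductase, at 1.39 ± 0.102. The lowered side held the glutathione transferases GSTU20 (-1.598 ± 0.12) and GSTU27 (-1.45 ± 0.11), the peroxidase PRXR1 (-1.51 ± 0.1004), the aldehyde dehydrogenase ALDH3F1 (-1.63 ± 0.09) and TAPX, the thylakoid ascorbate peroxidase (-1.44 ± 0.12), whose stromal counterpart SAPX was higher by 0.85 ± 0.097. GSTU16 was higher as well, at 0.95 ± 0.09. The nicotinamide and untreated ranges did not overlap for UGT76B1, UGT73C1, UGT87A2, UGT84A3, AER, GSTU20, GSTU27, PRXR1, ALDH3F1 and TAPX.

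**Figure D3:**
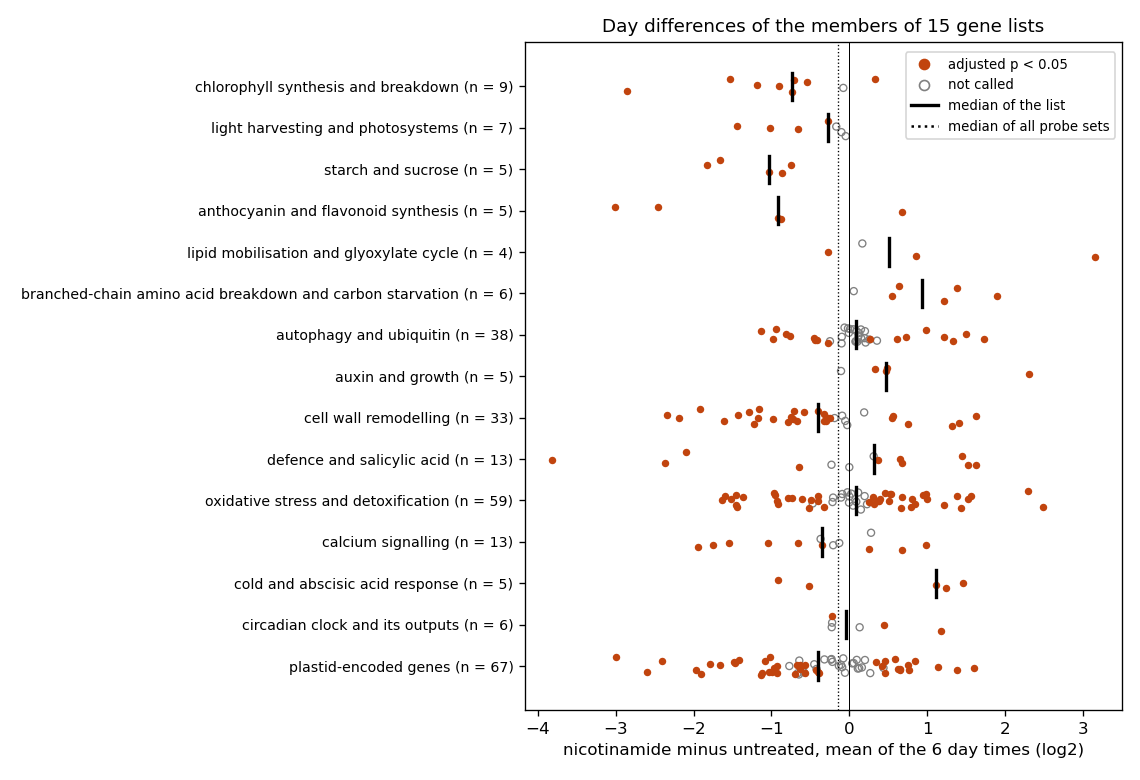
Mean day difference, nicotinamide minus untreated, of each tested member of 15 gene lists on the log2(signal + 16) scale. Filled points passed an adjusted p under 0.05, the bars mark list medians (from -1.03 for starch to 1.12 for the cold list) and the dotted line marks the median of all probe sets, -0.15.

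Calcium genes were examined because nicotinamide is known to act on calcium signals through ADP-ribosyl cyclase; arrays give transcript levels alone. CaS, the calcium sensor of the chloroplast, had signals of 194 to 627 on the nicotinamide arrays (median 460.3) and 892 to 2318 on the untreated arrays (median 1802), a difference of -1.94 ± 0.103 (SE; adjusted p = 3.01e-11), with no overlap. Of 6 IQD proteins, which bind calmodulin, 4 were lower and 2 higher. IQD31, IQD30 and IQD28 were at -1.75 ± 0.15, -1.54 ± 0.14 and -1.04 ± 0.11, and IQD22 was at 0.98 ± 0.12. The calmodulin-like CML30 was higher by 0.68 ± 0.08, and CML23, CML41 and CML42 were not called (-0.13, 0.28 and -0.37); CML41 gained a call with quantile normalization, at 0.41. The glutamate receptor-like channel GLR3.3 was at -0.66 ± 0.15 in the day and, without a call, at 0.25 in the subjective night. Over the list of 13 genes, 6 were lower (46.2%) and 3 higher (23.1%), shares close to the 41.7% and 23.8% of all probe sets, with a median of -0.35. QPT, quinolinate phosphoribosyltransferase of NAD synthesis, was the sole tested member of the NAD list, with a median of 113 under nicotinamide (range 23.2 to 302) against 276 in untreated seedlings (range 183 to 313) and a difference of -1.102 ± 0.25 (SE; adjusted p = 8.37e-04). Its nicotinamide signals were 179 to 302 on 5 of the 6 replicate 1 arrays, 23.2 on that of 77 h, and 51.6 to 131 on the replicate 2 arrays, so the replicates differed. Within replicate 1 alone QPT was not called, at -0.76.

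Of 5 cold and abscisic acid genes, 3 were higher and 2 lower. The dehydrins COR47 and LTI30 had nicotinamide medians of 1027 and 434 against untreated medians of 363 and 110.1, differences of 1.12 ± 0.17 and 1.24 ± 0.23. STZ, a zinc finger repressor of stress responses, was at 1.46 ± 0.21. The chloroplast proteins COR15A and COR15B were at -0.91 ± 0.22 and -0.51 ± 0.13, and COR15B lost its call after quantile normalization, at -0.29. Within replicate 2, where growth stage labels match, 3 genes were higher and 0 lower. COR15A and COR15B stood there at -0.56 and -0.36 without a call. Within replicate 1 COR15B was not called either, at -0.67. The fits within a replicate counted changes of a difference between times as error. The COR15B difference changed by -3.32 from hour 1 to hour 9, so these lost calls cannot be read as disagreement of replicates. The groups overlapped for all 5.

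Of 67 transcripts of the plastid genome, 28 were lower (41.8%) and 14 higher (20.9%), shares close to those of all probe sets. Within replicate 1 the list had 15 lower and a median of -0.09, and within replicate 2 it had 34 lower and a median of -0.52. The subgroups that follow were formed after values were seen. Of 15 photosystem II genes, 10 were higher and 1 lower. psbA, which encodes the D1 protein, had signals of 3512 to 8186 on the nicotinamide arrays (median 4483) and 1126 to 2282 on the untreated arrays (median 1517), a difference of 1.61 ± 0.11 (SE; adjusted p = 1.08e-09). Of 14 genes for ribosomal proteins, 12 were lower and 0 higher, with rpl22 at -3.001 ± 0.42, rps3 at -2.601 ± 0.36 and rpl36 at -2.404 ± 0.36. The 9 genes of the NDH complex had 6 lower and 0 higher, the lowest being ndhH at -1.97 ± 0.397. Of 6 cytochrome complex genes 3 were higher and 1 lower, of 5 photosystem I genes 1 was higher and 2 lower, of 6 ATP synthase genes 2 were lower, and of 4 RNA polymerase genes 2 were lower. The nicotinamide replicates differed for rpl22, with 107 to 1361 on the replicate 1 arrays and 48.3 to 110.0 on the replicate 2 arrays, with the highest value at 49 h. Of the photosystem II calls, psbB, psbD and psbT were lost after quantile normalization, and psbD stood at -0.09 without nicotinamide replicate 1 and at 1.61 without nicotinamide replicate 2.

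The size of many differences depended on the hour within the day. The contrast of hour 9 with hour 1 was called in 467 probe sets (3.42%), with the difference larger at hour 9 in 184 and smaller in 283 (limma), and 1723 had an unadjusted p under 0.05. COR27, a cold-regulated clock output that represses evening genes, showed it most among named genes with a symbol. At hour 1 its signals were 72.5, 162, 189.7 and 299.6 under nicotinamide and 1.08, 4.37, 9.87 and 13.3 in untreated seedlings. At hour 9 they were 25.4, 55.8, 65.1 and 70.1 under nicotinamide and 137, 63.3, 153 and 116 in untreated seedlings. The difference was thus 2.98 at hour 1, 1.496 at hour 5 and -0.93 at hour 9, and the change between hour 9 and hour 1 was -3.91 ± 0.42 (SE; adjusted p = 1.64e-05). Untreated signals climbed through the day and nicotinamide signals declined.

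GI, a component of the evening clock, had no called day mean (-0.23 ± 0.102; adjusted p = 0.0611), and its differences had opposite signs at the ends of the day. At hour 9 its signals were 107, 89.9, 102 and 86.8 under nicotinamide and 299, 251, 293 and 264 in untreated seedlings, a difference of -1.38. At hour 1 they were 48.0, 66.1, 141 and 142 under nicotinamide and 51.8, 34.4, 30.1 and 36.5 in untreated seedlings, a difference of 0.996. CCL, the CCR-like gene, was at 2.47 at hour 1 and -1.06 at hour 9, and its day mean of 0.45 ± 0.14 lost its call after quantile normalization, at 0.32. COR15B went the same way, with 1.08 at hour 1 and -2.24 at hour 9. AT3G62550 (2.04 and -3.07), AT5G62360 (2.08 and -2.24) and AT4G32340 (0.401 and -2.93) showed the same order of hours. At hour 5 the 2 conditions stood closer, at -0.29 for GI, -0.06 for CCL and -0.38 for COR15B. The list of clock genes and their outputs had 6 tested members: AFR, CCL, COR27, GI, TIC and XCT. Of these, 2 were higher and 1 lower in the day mean as deposited, against 1 and 0 after quantile normalization. CCA1, LHY and TOC1 were not among them, so the count does not describe the clock as a whole. TIC, a regulator of the clock, was not called for its day mean (0.13) or for the hour (0.01; adjusted p = 0.999).

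Other transcripts had the reverse order. HYH, the homolog of the light-response factor HY5, was at -0.61 at hour 1 and 1.62 at hour 9, and AFR, an F-box protein of far-red light responses, at -1.08 and 0.68. At hour 9 the AFR signals were 80.0, 69.7, 50.6 and 45.9 under nicotinamide and 27.8, 34.6, 22.7 and 44.5 in untreated seedlings. AT3G56290 stayed above untreated at each hour, by 0.43 at hour 1 and 2.89 at hour 9, and AT5G42760 was at -0.03 and 2.73. AT2G27420 (-1.75 and 1.08), AT1G65490 (-1.52 and 1.06), AT2G41250 (-0.86 and 1.503) and AT2G15020 (-0.33 and 1.97) completed the named set. The signals of HYH also differed between the nicotinamide replicates, with 240.0 and 85.7 at 49 h.

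Transcripts with a lower day mean also differed by hour. PORB was at -1.73 at hour 1, -2.64 at hour 5 and -4.18 at hour 9 (change -2.45 ± 0.26, SE; adjusted p = 1.64e-05). At hour 9 its signals were 119.9, 82.9, 83.9 and 119 under nicotinamide and 2104, 1951, 2471 and 1893 in untreated seedlings. TUB5, a beta-tubulin, was at -0.14 at hour 1 and -2.28 at hour 9, and BGLU44 at -1.35 and -3.09. The anthocyanin genes had the opposite order: DFR was at -3.65 at hour 1 and -1.85 at hour 9, UF3GT at -3.15 and -1.38, and CHIL at -1.95 and -0.09. DFR signals under nicotinamide were 35.0, 19.4, 17.5 and 14.1 at hour 1 and 26.6, 18.7, 21.7 and 13.4 at hour 9. In untreated seedlings they were 443, 246, 675 and 534 at hour 1 and 73.2, 98.1, 187 and 118 at hour 9, and the untreated values differed more between the hours. TBL26 had -2.14 and -0.49. The count of 467 was 44 without untreated replicate 1, 101 without untreated replicate 2, 1190 without nicotinamide replicate 1 and 832 without nicotinamide replicate 2.

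**Figure D4:**
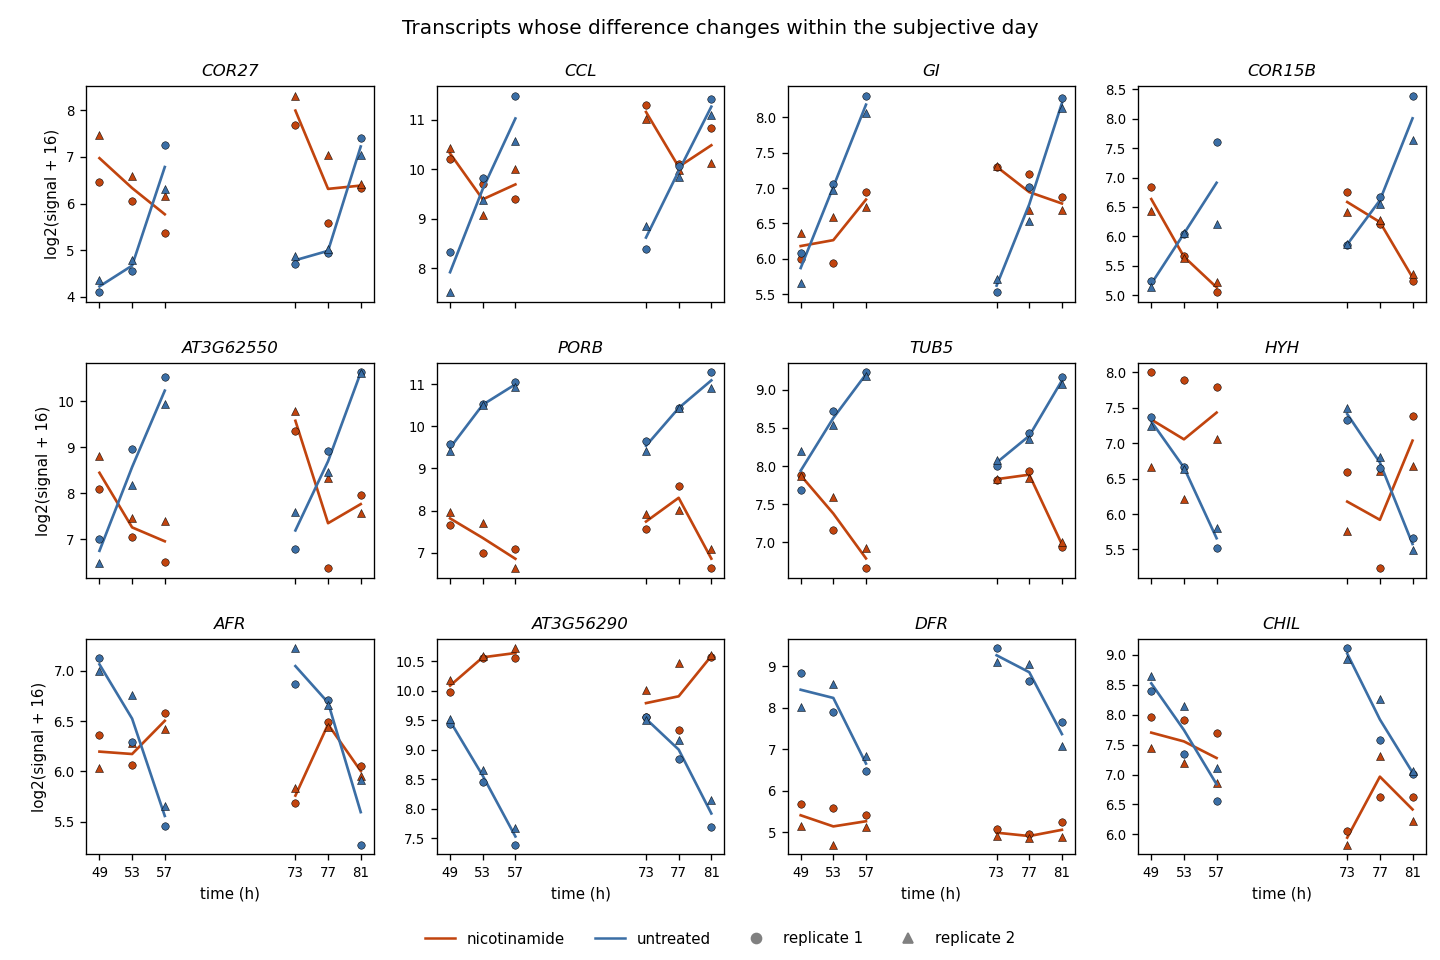
Signals of 12 transcripts as log2(signal + 16) against time in h over the 2 subjective days, with points for each array and lines through the means of 2 replicates. For COR27, CCL, GI, COR15B and AT3G62550 nicotinamide lies above untreated at hour 1 and below it at hour 9, and for HYH and AFR it lies below at hour 1 and above at hour 9.

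The contrast of the second day with the first was called in 1 probe set (0.00733%), which has no gene name in the annotation used, and 1252 had an unadjusted p under 0.05 (limma). By itself the first day gave 6038 calls and the second 7688, of which 5045 were shared in direction, 83.6% of the first day's and 65.6% of the second day's, and 3 were called in opposite directions. PORB was at -2.99 on the first day and -2.72 on the second, PDF1.2b at -3.04 and -4.59, ICL at 2.97 and 3.34, and GH3.3 at 2.16 and 2.46. The count of 1 was 203 without the nicotinamide array of 77 h replicate 2, 13 without nicotinamide replicate 1 and 2628 without nicotinamide replicate 2.

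Whether a difference belonged to the day was tested against the subjective night of the same time courses, 61, 65, 69, 85, 89 and 93 h, with 24 further arrays. In a fit of all 48 arrays, 9389 probe sets were called in the day and 9254 in the night, and 7662 had the same direction in both (81.6% of the day's and 82.8% of the night's calls). The difference between day and night was itself called in 1128 probe sets (8.27%), 561 higher in the day and 567 lower (limma), and 2790 had an unadjusted p under 0.05. Of the 1128, 585 were called the same way in day and night, 180 in the day and not in the night, 244 in the night and not in the day, and 119 in opposite directions. Of those 119, 57 were higher in the day and lower in the night, and 62 the reverse. Among the 12 highest day transcripts 2 were called, AT3G46280 and AT5G39580, and among the 12 lowest 1, AT1G73600; 8.27% of all probe sets were called.

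PDC2, a pyruvate decarboxylase of fermentation, was higher in the day and lower in the night. Its day signals were 225 to 459.9 on the nicotinamide arrays (median 345) and 61.8 to 266 on the untreated arrays (median 180.3). In the night they were 115 to 511 under nicotinamide (median 197) and 155 to 399 in untreated seedlings (median 325). The differences were 1.03 in the day and -0.49 in the night (day minus night 1.52 ± 0.17, SE; adjusted p = 1.36e-07), and at hour 5 the difference was 1.996. AT2G23910 had 1.19 in the day and -1.31 in the night. SUFE2, an activator of iron-sulfur cluster assembly, was at 1.83 and 0.63, and the carboxypeptidase SCPL49 at 0.54 and -0.55. THIC, an enzyme of thiamine synthesis, was lower in both periods, by less in the day (-0.9002) than in the night (-1.98), and CHIL (-0.87 and -2.09), TBL26 (-1.29 and -2.45) and scpl35 (-0.52 and -1.604) did likewise. COR27 was at 1.18 in the day and, without a call, -0.204 in the night.

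THI2.2 was lowered more in the day than in the night. Its day signals were 96.4 to 562 on the nicotinamide arrays (median 301) and 790.2 to 1894 on the untreated arrays (median 1545). Night signals were 123 to 649 under nicotinamide (median 432) and 207 to 1229 in untreated seedlings (median 449.7). The differences were -2.36 in the day and -0.42 in the night (day minus night -1.94 ± 0.27, SE; adjusted p = 6.72e-06). The groups were apart in the day and overlapped in the night. CYP71B26, a cytochrome P450, was lower in the day at -1.36 and higher in the night at 0.91. AT1G61500 was at -1.89 in the day and 0.11 in the night, LHCB4.2 at -1.44 and -0.29, and EXPA8 at -1.91 and -1.05. GI was at -0.23 in the day and 1.34 in the night. XTH18 was higher in both periods, by 1.62 in the day and 2.79 in the night, and GAT1_2.1 by 1.89 and 2.86. Both lost the call of day minus night without untreated replicate 1, at -1.16 and -1.13. They also lost it without untreated replicate 2, at -1.17 and -0.81. LHCB4.2 and EXPA8 lost that call without untreated replicate 1, at -1.06 and -0.57. CYP71B24 was at 0.09 in the day, where it was not called, and 1.21 in the night. Its call of day minus night was lost without untreated replicate 1 (-1.05) and without untreated replicate 2 (-1.199). Both probe sets of AT2G30600 were among the 10 lowest day minus night values, at -1.67 and -1.64.

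Loci without a symbol in the annotation used made up the rest of the set. On the side higher in the day were AT1G78450 (-0.51 in the day and -2.23 in the night), AT2G21130 (0.46 and -1.25), AT5G59670 (-1.07 and -2.78), AT4G30650 (0.33 and -1.34), AT1G78020 (0.43 and -1.16), AT4G16146 (0.63 and -0.95) and AT3G28270 (-0.05 and -1.57). On the side higher in the night were AT3G01060 (-0.78 in the day and 0.76 in the night), AT5G59080 (0.11 and 1.603), AT5G35970 (0.15 and 1.59) and AT1G73480 (-0.15 and 1.27). The day means of AT3G28270, AT5G59080, AT5G35970 and AT1G73480 were not called. The count of 1128 was 305 without untreated replicate 1, 345 without untreated replicate 2, 1907 without nicotinamide replicate 1 and 1801 without nicotinamide replicate 2.

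**Figure D5:**
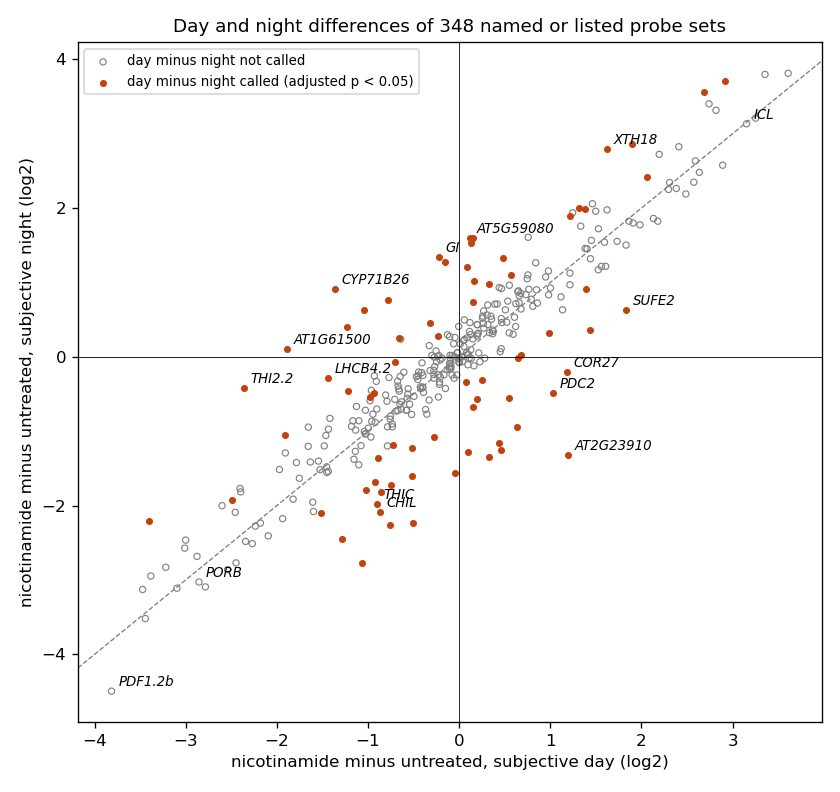
Nicotinamide minus untreated in the subjective night against the same in the subjective day, on the log2(signal + 16) scale, for the 348 probe sets named or in a list. The dashed line marks equal differences; filled points passed the test of day minus night, among them THI2.2, CYP71B26, PDC2, COR27 and GI, and ICL, PORB and PDF1.2b did not.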

How the data were processed

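Total RNA of aerial tissue was hybridised to ATH1 arrays, 1 sample each. The deposited values are linear signal intensities made by the authors with MAS5 in GCOS, per the submitters' processing notes; versions and scaling target are not given in the sources used here. From 22810 probe sets, 64 controls were left out and the 60% with the highest mean kept, leaving 13647. log2(signal + 16) was fitted with limma 3.58.1 (R 4.3.3, with data.table at version 1.17.8) as means of each condition and time, with an intensity trend and Benjamini-Hochberg adjustment over all probe sets tested; tables and figures used Python 3.11.15, pandas 2.3.3 and matplotlib 3.10.9. Contrasts were the day mean, second minus first day, hour 9 minus hour 1, and, with 24 night arrays, day minus night. All adjusted p values are limma's. No arrays were identical. Alternatives covered normalization, pseudocount (1, 64), filter, blocks, left-out arrays and replicates.

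Platform annotation gave 13513 probe sets 1 gene, 503 several and 8794 none; 13484 matched the reference annotation. Genes named for the size of a difference have 1 gene, a call and a mean signal of at least 100 in their highest condition. They were the 12 highest and 12 lowest day means of 1 sign throughout. For day minus night they were 10 and 10, and for the hour 6 and 6. Up to 4 members per list were named by smallest adjusted p, with neither a call nor that signal required. Because 11933 probe sets carry locus identifiers alone, the 15, 8 and 6 highest and lowest with a symbol were added after the annotation was seen. Further list members named, the subgroups of lists, and 12 symbol matches left out as other genes were chosen after values were seen. The comparison and the lists were chosen with earlier results of these data known. Models were also run on simulated data with noise drawn independently for each array. That setting lacks the correlation of same-numbered samples given below, so it does not show the error rate in these data.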

Additional observations from a re-analysis of the deposited data

Results flagged for a closer look

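A test of the difference between 2 effects of nicotinamide (limma, adjusted p under 0.05) called hour 9 against hour 1 in 467 probe sets and day against night in 1128. The second against the first day was called in 1 unnamed probe set, a count that ran from 0 to 2628 when replicates or arrays were left out. All values below are differences of 2 nicotinamide minus untreated differences on the log2 scale.

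The difference was larger at hour 9 than at hour 1 for AT2G27420 (2.83), AT5G42760 (2.76), AT1G65490 (2.58), AT3G56290 (2.46), AT2G41250 (2.37), AT2G15020 (2.2995), HYH (2.22), CHIL (1.86), DFR (1.803), UF3GT (1.77), AFR (1.75) and TBL26 (1.65). It was smaller at hour 9 for AT3G62550 (-5.12), AT5G62360 (-4.32), COR27 (-3.91), CCL (-3.53), AT4G32340 (-3.33), COR15B (-3.32), PORB (-2.45), GI (-2.38) and TUB5 (-2.14). The genes of anthocyanin synthesis DFR, UF3GT and CHIL stand on the first side. Of the list of clock genes and their outputs, GI, COR27 and CCL stand on the second side and AFR on the first. Without untreated replicate 1 the hour calls of DFR, UF3GT and CHIL were lost, at 1.58, 1.43 and 1.73. Those of HYH, AT2G27420, AT5G42760, AT1G65490, AT3G56290, AT2G41250 and AT2G15020 were lost as well. Without untreated replicate 2 the calls lost were those of HYH, CHIL, TBL26, AT5G42760, AT1G65490 and AT2G15020. All of these stand on the first side, and no call of the second side was lost in either case.

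The difference was larger in the day than in the night for AT2G23910 (2.51), AT1G78450 (1.72), AT2G21130 (1.71), AT5G59670 (1.71), AT4G30650 (1.67), AT1G78020 (1.59), AT4G16146 (1.58), AT3G28270 (1.52), PDC2 (1.52), AT4G32340 (1.51), COR27 (1.39), CHIL (1.22), SUFE2 (1.19), TBL26 (1.16), SCPL49 (1.099), scpl35 (1.09) and THIC (1.08). It was smaller in the day for CYP71B26 (-2.28), AT1G61500 (-2.002), THI2.2 (-1.94), AT2G30600 (-1.67), AT2G30600 (-1.64), GI (-1.56), AT3G01060 (-1.54), AT5G59080 (-1.49), AT5G35970 (-1.45), AT1G73480 (-1.43), XTH18 (-1.17), LHCB4.2 (-1.15), CYP71B24 (-1.12), GAT1_2.1 (-0.97) and EXPA8 (-0.86). AT2G30600 appears with both of its probe sets. COR27, GI, CHIL, TBL26 and AT4G32340 differed both within the day and between day and night.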

How the results depend on the processing

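Of the day means of named genes recomputed under the alternatives, 9617 kept the same call or stayed without one, 388 lost the call and 85 gained it. A further 3 had a call and turned sign. They were SPCH at 0.021 and TBL41 at 0.0298 after quantile normalization, and psbD at -0.0901 without nicotinamide replicate 1. Without nicotinamide replicate 2 psbD stood at 1.61. Turns of sign were counted for called means only. PRK, which had no call, moved from 0.07 to -0.01 after quantile normalization. Of the 24 single arrays left out in turn, the call was lost for AIM1 with 19, psbT with 16, psbD with 16, LHCB4.1 with 13, AFR with 12, psbB with 6, SAG101 with 4 and TBL41 with 2. Leaving out a whole replicate ended further calls: without untreated replicate 1 those of QPT, GH3.17, HAT2, IAA18, SPCH, HEMB1, PWD, ATG8F, AT4G30650, AT1G78020, AT2G15020 and AT3G62550, without untreated replicate 2 those of CCL, HAT2, IAA18, AT1G78450 and AT4G30650, and without nicotinamide replicate 2 that of SPCH. For the hour 819 kept their call and 19 lost it, and for day minus night 2010 and 35. Without untreated replicate 1 the day minus night calls lost were those of AT3G28270, scpl35, XTH18, LHCB4.2, CYP71B24, GAT1_2.1 and EXPA8. Without untreated replicate 2 they were those of AT3G28270, COR27, SUFE2, XTH18, CYP71B24 and GAT1_2.1. GAT1_2.1 also lost that call without single arrays, such as untreated at 49 h replicate 1 (-0.95). The day counts were 612 higher and 1223 lower at 2-fold or more, 1820 and 3667 with Rep1 arrays only, and 2074 and 3630 with means of the time courses, and 3358 were lower among the upper 40% of signals. An adjusted p under 0.01 left 254 calls for the hour, 650 for day minus night, 493 at all single times and 0 between days. A fit of all 72 arrays gave 926 for the hour, 1640 at all single times and 23 between days. The count between days was 2 with time courses as a random block, and 0 without a filter, without the array that stands apart and without arrays titled _2. Leaving out replicates or single arrays gave 2196 to 3599 higher, 3692 to 6560 lower, 0 to 2628 between days, 44 to 1190 for the hour, 305 to 1907 for day minus night and 90 to 2101 at all single times. Deviations of same-numbered samples correlated at over 0.1 at 10 of 12 times (day -0.040 to 0.26, night 0.12 to 0.35), and at 0.42 for the mean over the day times. Since 2 day times fell short and no label used here says what a number shares, no block was used. With a replicate block the counts were 3384 higher, 5939 lower, 1 between days, 614 for the hour, 1564 for day minus night and 1301 at all single times. The causes were not tested. With 2 arrays per condition and time, small differences at single times were not detectable, and signals near background limit folds.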
